A study of Gallus gallus with 6 samples.

Results

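The genes described here are 10 genes of retinoid response and metabolism on a chicken expression array. They are RARRES1, the nuclear receptor genes RARA, RARB, RXRA and RXRG, the carrier genes CRABP1 and RBP4, and the enzyme genes ALDH1A1, ALDH1A2 and RDH10. A probe set belonged to a gene when the platform annotation gave that gene's symbol and no other. All 10 genes were found among the 13050 genes with a single symbol, through 20 of the 38535 probe sets. The genes were chosen by a rule written with the differences between the 2 v-Myb forms already known. Their own differences are therefore given as a description, without a test.

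Gene expression was measured in monoblasts, immature precursors of monocytes and macrophages, of Brown Leghorn chickens. They were primary cells transformed by v-Myb, an oncogenic transcription factor carried by a chicken leukemia retrovirus, in its wild type form or in a mutant form called deltaP, whose change in the protein the labels do not describe. Each form had 3 biological replicates, each hybridized to 1 array, and no retinoid treatment is named. All cultures had fetal bovine and chicken serum in the medium, the labels name no untransformed control, and whether the replicates came from separate birds is not given.

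Retinoids are derivatives of vitamin A. Retinol circulates bound to RBP4, is oxidised to retinal by enzymes such as RDH10, and retinal is oxidised to retinoic acid by the ALDH1A enzymes. Retinal is also made from beta-carotene by BCO1 and can be reduced back to retinol by DHRS3. Retinoic acid, which CRABP1 binds in the cytoplasm, activates RAR receptors paired with RXR receptors on DNA, and in myeloid precursors of mammals this signal is known for driving differentiation towards granulocytes.

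Values are on a log2 scale, as deposited. In every probe set the wild type and deltaP values of the same replicate number added up to the same sum, to within 0.00013 log2 units over the 3 numbers. The table thus holds only 3 differences per probe set, 1 for each same-numbered pair, and errors below are the SD of these differences. The SDs and the tests below treat the pairs as independent, which the labels do not settle. The single-array values mirror each other within a pair and are not separate measured levels. For the same reason the groups do not overlap exactly when all 3 pairs differ in the same direction. A probe set was taken as bright when its log2 value was over 4 in at least 3 arrays, which held for 59.5% of genes by at least 1 probe set. Of the markers for monocytes and macrophages on the array, 7 of 9 were bright, among them CSF1R and SPI1, and 1 of 10 fibroblast markers was. Of the other lists, 1 of 1 erythroid, 1 of 2 thrombocyte, 2 of 6 lymphocyte (CD3D and CD3E), 1 of 6 endothelial and epithelial, 2 of 7 liver and yolk sac (ALB and TF) and 2 of 3 granulocyte markers were bright. Some of these markers differed widely within pairs without keeping 1 direction. Log2 differences, deltaP minus wild type, in pairs 1, 2 and 3 were 2.91, 0.29 and -2.65 for the erythroid marker HBAD. They were 0.41, 2.52 and -2.19 for CD3E and -1.17, 1.07 and -1.63 for CD3D. The part of such RNA in the values of the 10 genes was not tested. The number of arrays limits the precision.

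RARRES1 and RDH10 were the members above the detection filter. Both had higher values in deltaP in every pair, as had 17.5% of all genes with a bright probe set. RARRES1 was 2.87-fold higher and RDH10 1.4-fold higher. The other 8 genes, which include all 4 receptors, both carriers and both aldehyde dehydrogenases, were dim in both groups. A dim value does not separate low expression from none. In bulk RNA, a change in the share of cells that express a gene and a change in RNA per cell cannot be told apart.

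**Figure D1:**
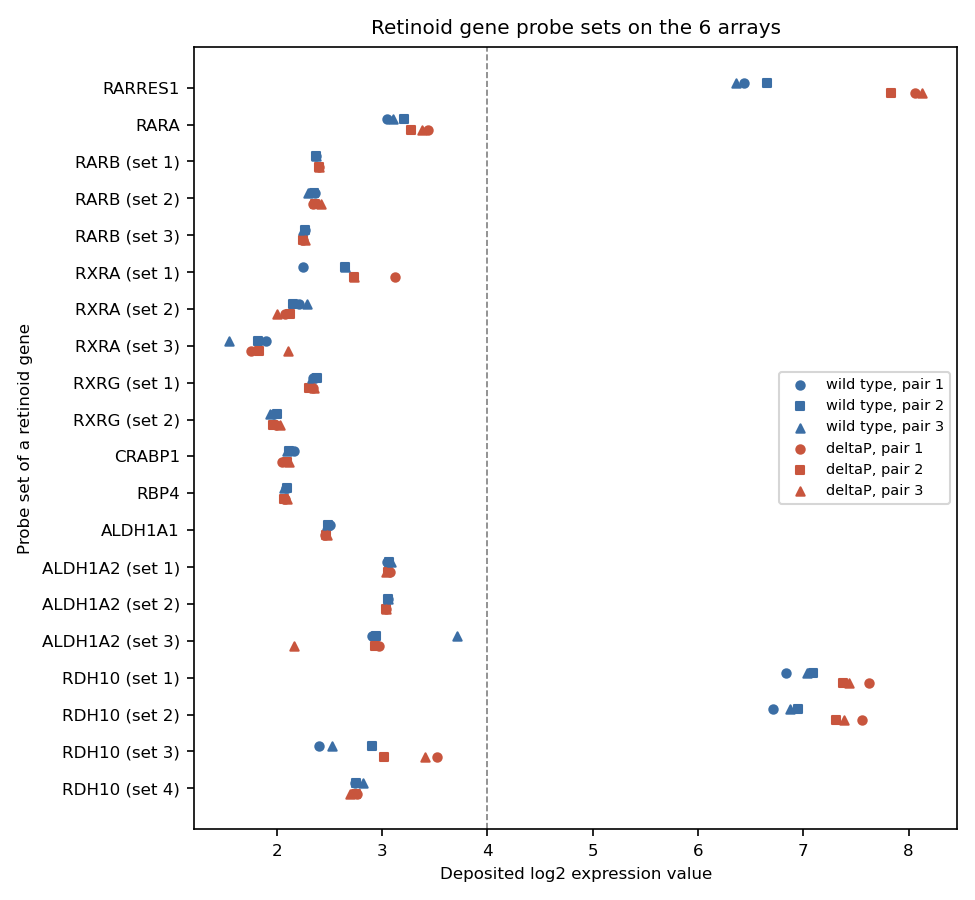
Deposited log2 values (horizontal axis) of the 20 probe sets of the 10 retinoid genes (vertical axis), with 1 point per array, colour for the v-Myb form, shape for the pair, and a dashed line at the log2 filter of 4. The RARRES1 probe set and 2 of the 4 RDH10 probe sets lie to the right of the line, and the other 17 probe sets lie between 1.55 and 3.71.

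RARRES1 is named for its response to a retinoic acid receptor ligand and encodes a protein related to latexin, an inhibitor of carboxypeptidases. In chicken the gene table lists it also as OCX32, the eggshell matrix protein ovocalyxin-32. Its probe set (Entrez gene 395209) had wild type values of 6.43, 6.66 and 6.36 in pairs 1, 2 and 3, and deltaP values of 8.06, 7.83 and 8.13. Each pair had the higher value in deltaP, which on these mirrored values already keeps the groups apart. The same held for 17.5% of tested genes. Values in deltaP exceeded those in wild type by 1.52 ± 0.31 log2 units (SD, n = 3 pairs), from 1.17 in pair 2 to 1.77 in pair 3. Among all 16199 bright probe sets, 40 (0.247%), RARRES1 included, had a mean difference at least as high. Since RARRES1 was chosen with this contrast known, its rank is a description and not a measure of chance. In limma with the replicate numbers fitted as blocks, none of the 16199 bright probe sets had an adjusted p under 0.05 (0% called). Of the 20 retinoid probe sets, 17 were dim and not part of this fit. At an unadjusted p under 0.05 the same fit gave 1500 probe sets, and without replicate 3 it called 12.

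RDH10 encodes the retinol dehydrogenase that makes retinal for retinoic acid synthesis in the vertebrate embryo. Its brightest probe set (Entrez gene 420183) had wild type values of 6.84, 7.09 and 7.03 and deltaP values of 7.63, 7.38 and 7.43 in pairs 1, 2 and 3. Each pair had the higher value in deltaP, and the gap was smallest in pair 2. Values in deltaP exceeded those in wild type by 0.49 ± 0.26 log2 units (SD, n = 3 pairs), with 0.79 in pair 1, 0.29 in pair 2 and 0.4 in pair 3. A second bright probe set, of the kind that can bind related sequences and likely shares its target with the first by its name, had differences of 0.85, 0.36 and 0.51. Another, dim in both groups, had differences of 1.13, 0.11 and 0.88, and the last had differences from -0.12 to 0.02. Of the 16199 bright probe sets, 753 (4.65%) had a mean difference at least as high as the first and 541 (3.34%) one at least as high as the second. These ranks are likewise only a description, since RDH10 was chosen with this contrast known. In all, 3 of the 4 RDH10 probe sets, 1 of them dim, were higher in deltaP in every pair. The bright ones likely share a target and are not separate readings. With each gene taken by its brightest probe set, 17.5% of tested genes were higher in every pair, and 12.9% of all genes without a filter. All 3 of these RDH10 probe sets had their smallest difference in pair 2. Over all bright probe sets the median absolute log2 difference was also smallest in pair 2 (0.19, against 0.23 in pair 1 and 0.32 in pair 3).

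The receptors bind retinoic acid (the RARs) or pair with them and with other nuclear receptors (the RXRs). RARA had wild type values of 3.05, 3.21 and 3.1 and deltaP values of 3.43, 3.27 and 3.38. All 6 values were under the filter. RARA was higher in deltaP in every pair, by 0.06 in pair 2, as were 12.9% of all genes taken without a filter. The mean difference of RARA was 0.24 ± 0.17 (SD, n = 3 pairs) on the log2 scale. The 3 probe sets of RARB, itself a well-known target of retinoic acid receptors, stayed within 2.25 and 2.42 on all arrays. Their pair differences ran from -0.02 to 0.12. The brightest RXRA probe set had differences of 0.88, 0.09 and 0.09, so its mean of 0.35 came mostly from pair 1. A second RXRA probe set had differences of -0.13, -0.03 and -0.28, and the last -0.14, 0.02 and 0.56. The RXRA probe sets thus differed in direction. Both RXRG probe sets stayed between 1.94 and 2.39, with mean differences of -0.02 and 0.02.

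The carriers and aldehyde dehydrogenases were all under the filter. The CRABP1 mean was 2.12 on the log2 scale in wild type and 2.09 in deltaP, and that of RBP4 was 2.08 in both. ALDH1A1, a retinal and general aldehyde dehydrogenase, had means of 2.49 and 2.47. ALDH1A2 is the main retinoic acid-forming enzyme of the early embryo, and 2 of its 3 probe sets stayed between 3.03 and 3.09 on all arrays. Its remaining probe set had differences of 0.07, -0.01 and -1.55, from a wild type value of 3.71 and a deltaP value of 2.16 in pair 3.

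Such a difference in pair 3 alone was more frequent than one in another pair among dim probe sets. Of 22240 dim probe sets, 304 differed by over 1 log2 unit in pair 3 and by under 0.2 in both other pairs, against 46 for pair 1 and 31 for pair 2. The part of pair 3 in the ALDH1A2 value was not tested. Over the 10 genes, each by its brightest probe set, 5 were higher in deltaP in all 3 pairs, against 12.9% of all genes taken without a filter. These were RARRES1, RDH10, RARA, RARB and RXRA, and since the choice of the genes used this contrast, nothing is read from the count. The median log2 difference of the 10 genes was 0.01, and that of all probe sets -0.01.

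To place these genes among others of the same pathway, 98 further gene symbols were listed in 5 groups by role. Of these, 78 had a probe set and 31 were bright enough to test. In limma with the block 0 of the 31 genes passed at an adjusted p under 0.05, with adjusted p from 0.421 to 0.984. At an unadjusted p under 0.05 there were 6 of 31 (19.4%), 1 higher and 5 lower in deltaP, against 9.99% of all 7768 tested genes. Without the block, in a fit that overstates its degrees of freedom on these mirrored values, limma called 4 of the 31 (PNPLA4, NR1H3, TBL1XR1 and NAV2), against 7.71% of tested genes. Of the 31 genes, 5 were higher in all 3 pairs and 11 lower, where 17.5% and 15.9% of tested genes were. Their median log2 difference was -0.11, against 0 for the tested probe sets. The lists were chosen with earlier results of these data known, so these shares are a description and nothing is read from them.

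The enzymes of retinoid and carotenoid metabolism had 7 tested members of 17 on the array, and 0 passed the threshold in either direction. Of the 7, 1 was higher and 4 lower in deltaP in all 3 pairs, against 17.5% and 15.9% of tested genes. BCO1, which cleaves beta-carotene into retinal, had wild type values of 9.93, 10.34 and 10.45 and deltaP values of 11.22, 10.81 and 10.7. Its values were higher in deltaP in 3 of 3 pairs, by 0.67 ± 0.54 log2 units (SD, n = 3 pairs), with an adjusted p of 0.456 in limma. DHRS3, which reduces retinal to retinol and is induced by retinoic acid in several vertebrates, had wild type values of 5.8, 5.2 and 5.63 and deltaP values of 4.31, 4.91 and 4.48. Its values were lower in deltaP in 3 of 3 pairs, by -0.98 ± 0.62 (SD, n = 3 pairs; adjusted p = 0.421 in limma). Only 1 of the 2 DHRS3 probe sets was bright, and its deltaP mean of 4.57 lay near the filter. Before any adjustment for the number of tests, 95% confidence limits from limma were 0.12 and 1.21 log2 units for BCO1 and -1.7 and -0.26 for DHRS3. Both genes were named for their large differences in 1 direction, which pushes such limits outwards. The limits are thus a description, and nothing is read from their side of no difference.

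PNPLA4, a lipase with retinyl ester activity in mammals, and DHRS4, a retinal reductase, also had lower values in deltaP in 3 of 3 pairs. Their log2 differences were -0.46 ± 0.14 and -0.42 ± 0.27 (SD, n = 3 pairs), with adjusted p of 0.516 and 0.599 in limma. RETSAT, which saturates retinol, had differences of 0.72, 1.05 and -0.38 and so did not keep its direction. RDH11 had differences of -0.23, -0.43 and -0.08, and RDH14 of -0.26, 0.48 and -0.93. The genes CYP26A1, CYP26B1 and CYP26C1, whose products degrade retinoic acid and of which CYP26A1 is a strongly induced target, were dim on all arrays. CYP26A1 had means of 2.57 and 2.64.

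**Figure D2:**
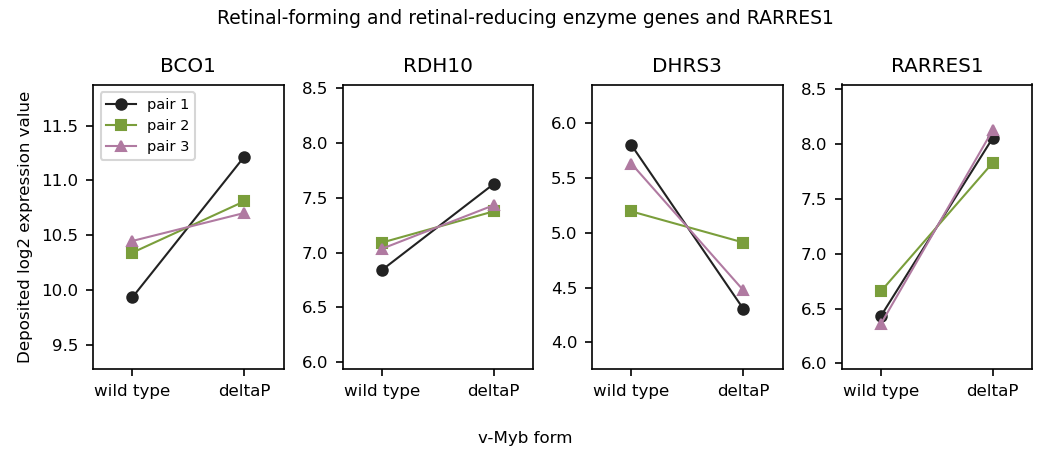
Deposited log2 values (vertical axes, each spanning the same number of log2 units) in wild type and deltaP cells (horizontal axes) of BCO1, RDH10, DHRS3 and RARRES1, with 1 line for each of the 3 pairs. The 4 genes were picked after their values were seen: BCO1, RDH10 and RARRES1 were higher and DHRS3 lower in deltaP in every pair.

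Among uptake, binding and storage genes 1 of 12 on the array was tested. RBP7, a cellular retinol-binding protein gene, had differences of -0.02, 0.22 and 0.92 (adjusted p = 0.698 in limma). The retinol receptor gene STRA6, with means of 2.67 and 2.71, was dim. Of the nuclear receptors that pair with RXR, 2 of 10 were tested. NR1H3, the oxysterol receptor LXR alpha of macrophages, differed by -0.31 ± 0.11 (SD, n = 3 pairs; adjusted p = 0.481 in limma), and its second probe set by -0.34. PPARD, a fatty acid receptor gene, had differences of -0.94, 0.4 and -0.28.

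The cofactors of retinoic acid receptors were the group with most tested members, 12 of 14, and 0 passed. Of the 12, 2 were higher and 6 lower in deltaP in all 3 pairs, against 17.5% and 15.9% of tested genes. NRIP1, a corepressor that binds receptors with their ligand and is itself induced by retinoic acid in mammals, differed by -0.6 ± 0.41 (SD, n = 3 pairs; adjusted p = 0.426 in limma). A second NRIP1 probe set differed by -0.63 ± 0.25, with -0.91, -0.51 and -0.46 in pairs 1, 2 and 3. TBL1XR1, a subunit of the NCoR corepressor complex, differed by -0.34 ± 0.16 (adjusted p = 0.475 in limma), and its other 2 probe sets by -0.2 and -0.21. The coactivator genes NCOA1 and NCOA2 differed by -0.29 ± 0.25 and -0.28 ± 0.28 (SD, n = 3 pairs), with adjusted p of 0.658 and 0.689 in limma. Other bright NCOA2 probe sets had mean differences of -0.25, -0.14 and -0.44. The last of these did not keep its direction, with -0.46, -1.77 and 0.91 in pairs 1, 2 and 3.

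Of genes reported elsewhere to respond to retinoic acid, 9 of 25 were tested and 0 passed. NAV2, a neuron navigator gene known to be induced by retinoic acid in neuroblastoma cells, differed by 0.47 ± 0.15 (SD, n = 3 pairs), with an adjusted p of 0.548 in limma. Only 1 of its 9 probe sets was bright, and that one lay near the filter, with means of 4.47 in wild type and 4.94 in deltaP. CDKN1A, which encodes the cell cycle inhibitor p21, differed by 0.41 ± 0.33 (adjusted p = 0.606 in limma). The other 7 tested genes did not keep 1 direction over the pairs. RARRES2, which encodes the chemoattractant chemerin, had differences of -0.25, -0.17 and 0.75.

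**Figure D3:**
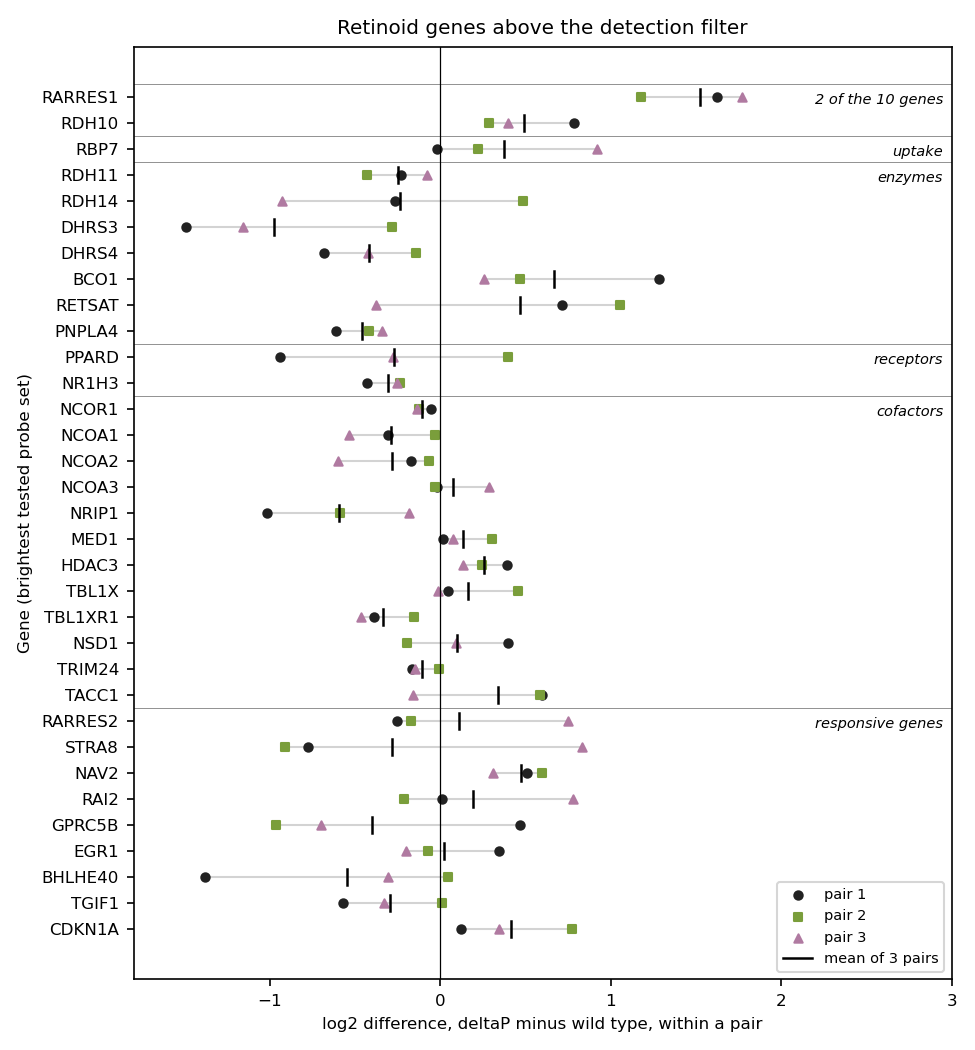
Differences in log2 value, deltaP minus wild type, within each of the 3 pairs (horizontal axis) for RARRES1, RDH10 and the 31 tested pathway genes (vertical axis, grouped by role), each by its brightest tested probe set, with a bar at the mean. RARRES1 has the highest mean of the genes shown (1.52) and DHRS3 the lowest (-0.98).

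The genes whose 3 pair differences lay nearest to those of RARRES1 were sought among 7751 named genes with a bright probe set. Each gene was taken by its bright probe set nearest to RARRES1, which favours genes with several probe sets. By root mean square distance over the 3 pairs the nearest genes were LMO2 (0.15 log2 units), NT5E (0.22), MAOA (0.36), ENOX1 (0.37) and SOCS1 (0.45). LMO2, which bridges transcription factors in blood progenitors, had differences of 1.47, 0.99 and 1.86, against 1.63, 1.17 and 1.77 for RARRES1. ENOX1 passed the filter only through deltaP, with means of 3.49 in wild type and 4.96 in deltaP, so its differences rest on dim wild type values. The distance rests on the size of the differences, so the nearest genes are by construction ones with a large rise in deltaP. With 3 differences per gene the likeness is a description of these arrays only. Of the 3 granulocyte markers on the array, S100A12 and EXFABP also had higher values in deltaP in each pair, as had 17.5% of tested genes. The differences were 1.93, 2.77 and 1.82 for S100A12 and 1.02, 1.72 and 0.51 for EXFABP, with adjusted p of 0.191 and 0.338 in limma. The other, CTSG, was dim and had differences of -0.06, -0.01 and 1.27. MPO, CEBPE and CATH2, the rest of the 6 listed granulocyte markers, had no probe set under these symbols. Whether the share of granulocytes differed was not tested. On the log2 scale the summed linear level of the 3 granulocyte markers was 9.5 to 10.09 in wild type and 10.74 to 11.32 in deltaP. This sum is mostly EXFABP, with means of 9.7 in wild type and 10.78 in deltaP, against 5.98 and 8.15 for S100A12. It is built from mirrored values, so the sums of single arrays are not separate measured levels. Of the 7 bright monocyte and macrophage markers, 2 were higher and 3 lower in deltaP in all 3 pairs, against 17.5% and 15.9% of tested genes. The median log2 difference of these 7 markers was -0.16. The largest differences of S100A12 and EXFABP were in pair 2, where that of RARRES1 was smallest, and their part in the RARRES1 value was not tested.

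The neighbours of RARRES1 and RDH10 on their chromosomes were examined after the values were seen. In the order of genes with a probe set in assembly GRCg7b, LXN, which encodes latexin and is a relative of RARRES1, lies the second gene to one side. It had differences of 1.09, 0.82 and 0.1 (mean 0.67 ± 0.51, SD, n = 3 pairs; adjusted p = 0.463 in limma). The nearer neighbours GFM1 and MFSD1 had mean differences of 0.26 and 0.19, with adjusted p of 0.628 and 0.672 in limma. SCHIP1, the second gene to the other side, was dim and had a mean difference of -0.02. Around RDH10, the adjacent genes RPL7 and STAU2 had mean differences of -0.03 and -0.32, with adjusted p of 0.94 and 0.587 in limma. Next to these, TCEB1 had a mean difference of -0.08 (adjusted p = 0.906 in limma), and SBSPON, which was dim, one of 0.01.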

How the data were processed

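Total RNA of 6 cultures (3 wild type, 3 deltaP) was put on Affymetrix arrays as biotinylated cRNA, per the labels' protocols. The deposited table holds log2 values. The submitters' processing notes name GCRMA and Partek 6.4, with no role or order. GCRMA draws dim values towards a shared floor, which can compress or inflate their differences. Same-numbered arrays deviated from their group means with correlations of -1 in all 3 pairs, so the pair effect had been removed before deposit, by a step the sources used here do not give. The pairing comes from the titles' replicate numbers, and the removed spread between pairs cannot be recovered.

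The 16199 of 38439 non-control probe sets with log2 over 4 in at least 3 arrays were fitted with limma 3.58.1 (R 4.3.3), with the replicate number as a block, an intensity trend, and two-sided p-values with Benjamini-Hochberg adjustment over all of them. A pathway gene was represented by its brightest tested probe set. The fit was checked on simulated data. Symbols came from the platform annotation of 2016. Genes named outside the 10 were, in each group, those past the threshold or up to 4 with the largest difference among those of 1 direction in all pairs, the 5 nearest to RARRES1, and some named after their values were seen. The members and lists were chosen with earlier results of these data known. Alternatives were no block, no filter or a stricter one, repeated quantile normalization, no trend, robust eBayes, the mean of all probe sets and leaving out each replicate number. Promoter and protein sequences were not analysed here.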

Additional observations from a re-analysis of the deposited data

How the results depend on the processing

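The number of probe sets called by limma was 0 with the replicate block and 1120 with no replicate block, and over the fits that left out 1 replicate number it was between 0 and 12. The 12 calls came without replicate 3. At an unadjusted p under 0.05 the fit with the block gave 1500 probe sets, and 670, 1462 and 1956 without replicates 1, 2 and 3. For the retinoid pathway genes the count called was 0 of 31 and became 4 with no replicate block, and it was 0 under every other alternative run, with 1 to 8 genes at an unadjusted p under 0.05. The median log2 difference of the 10 genes was 0.01. It became 1.01 with the filter at log2 over 6, which left RARRES1 and RDH10 alone, and was between 0.01 and 0.02 without 1 replicate. The difference of RARRES1 was between 1.4 and 1.7 and that of RDH10 between 0.34 and 0.59 under all alternatives run for them. Of 50 values recomputed for single genes, 48 moved by no more than the SD of their 3 pairs. The exceptions were RARB and ALDH1A2 by the mean of all their probe sets (0.02 and -0.18). RXRA fell from 0.35 to 0.09 without replicate 1. What the dim probe sets measure is limited by signal over background.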
